A study of Mus musculus with 4 samples.

Results

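The genes of the DNA replication machinery were examined in leukemia stem cells of a mouse model of chronic myeloid leukemia. The set was a fixed list of 34 genes named by function, and all 34 were measured, of 19938 genes tested in all. Each gene was represented by its probe set with the highest mean among those that carry 1 gene symbol. In the model, marrow of donors given 5-fluorouracil was infected with a retrovirus that carries BCR-ABL, the fusion kinase of the disease, with green fluorescent protein, and was transplanted into C57BL/6 (B6) recipients. The 2 WT samples came from C57BL/6 (B6) donor marrow and the 2 Hif1a-/- samples from Hif1a-/- donor marrow, so both genotypes carried BCR-ABL, drug-treated donor marrow and WT recipients. The labels give an age of 8 weeks for every sample. Cells were collected from recipient marrow 14 days after transplantation and sorted as GFP+Lin-c-Kit+Sca-1+, and each sample was hybridised to 1 Affymetrix whole-transcript array. Nothing in the labels ties the biological replicates to separate animals, and p-values then reflect only how far these samples differ, which may be technical. How the Hif1a-/- allele was made, and whether it is lost in donor cells of every type, is not given in the sources used here.

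DNA replication is prepared before S phase, when the origin recognition complex, Cdc6 and Cdt1 load rings of the Mcm2 to Mcm7 proteins onto DNA, a step called origin licensing. At the start of S phase, cyclin E kinase and the Cdc7 kinase with its activator Dbf4 turn these rings into active helicases that contain Cdc45 and the GINS complex, and polymerases then copy the opened strands. Most of these genes are targets of E2F transcription factors, and their transcripts are low in resting stem cells and high in cells that have entered the cycle. In marrow, long-lived stem cells are mostly at rest, while progenitors cycle.

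Every value below is a deposited log2 expression value, where 1 unit is a 2-fold difference, and a difference is the mean of the Hif1a-/- arrays minus the mean of the WT arrays. Values are given in the order replicate 1 and replicate 2, with n = 2 arrays in each genotype. A level can be set against that of the same gene on another array but not against that of another gene, because probes differ in brightness. The data come from bulk RNA, so fewer cells that express a gene and less of its RNA per cell cannot be told apart. The medians over all genes tested lay between 8.53 and 8.57 on the 4 arrays. Hif1a itself read 11.34 and 11.50 on the WT arrays and 11.25 and 11.39 on the Hif1a-/- arrays, groups that overlapped, and since the deleted exons are not given, this checks the labels only weakly. Among markers of the gate, Kit read 10.32 and 11.07 on the WT arrays and 10.95 and 10.61 on the Hif1a-/- arrays, and Ly6a, the gene of Sca-1, was not matched to a probe set of its own and was not analysed here.

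Transcripts of the replication machinery had a slightly higher mean in leukemia stem cells without Hif1a, and no member passed the test. Of the 34 genes, 31 lay higher and 3 lower in mean in Hif1a-/- cells (28 and 6 when each array was centred on its median), where 61.4% of all genes had a higher mean. Their median difference was 0.10, a 1.07-fold difference, beside a median of 0.034 over all genes. By limma with Benjamini-Hochberg adjustment over all genes, 0 of the 34 had an adjusted p under 0.05, where 0% of all genes did, and the smallest adjusted p was 0.999. At an unadjusted limma p under 0.05 there were 0 higher members, beside 0.697% of all genes, and 0 lower members, beside 0.978%. In 2 members, Cdc6 and Cdc45, each Hif1a-/- array exceeded each WT array, and in 1, Dbf4, each lay under both WT arrays. All genes tested showed these patterns in 15.7% and 9.05% of cases, so the members' shares were under the background in both directions. After a second quantile normalization, 5 members lay above without overlap and 1 below, where 14% and 13% of all genes did, and with centred arrays 1 lay above and 1 below, where 11.5% and 12.3% did.

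**Figure D1:**
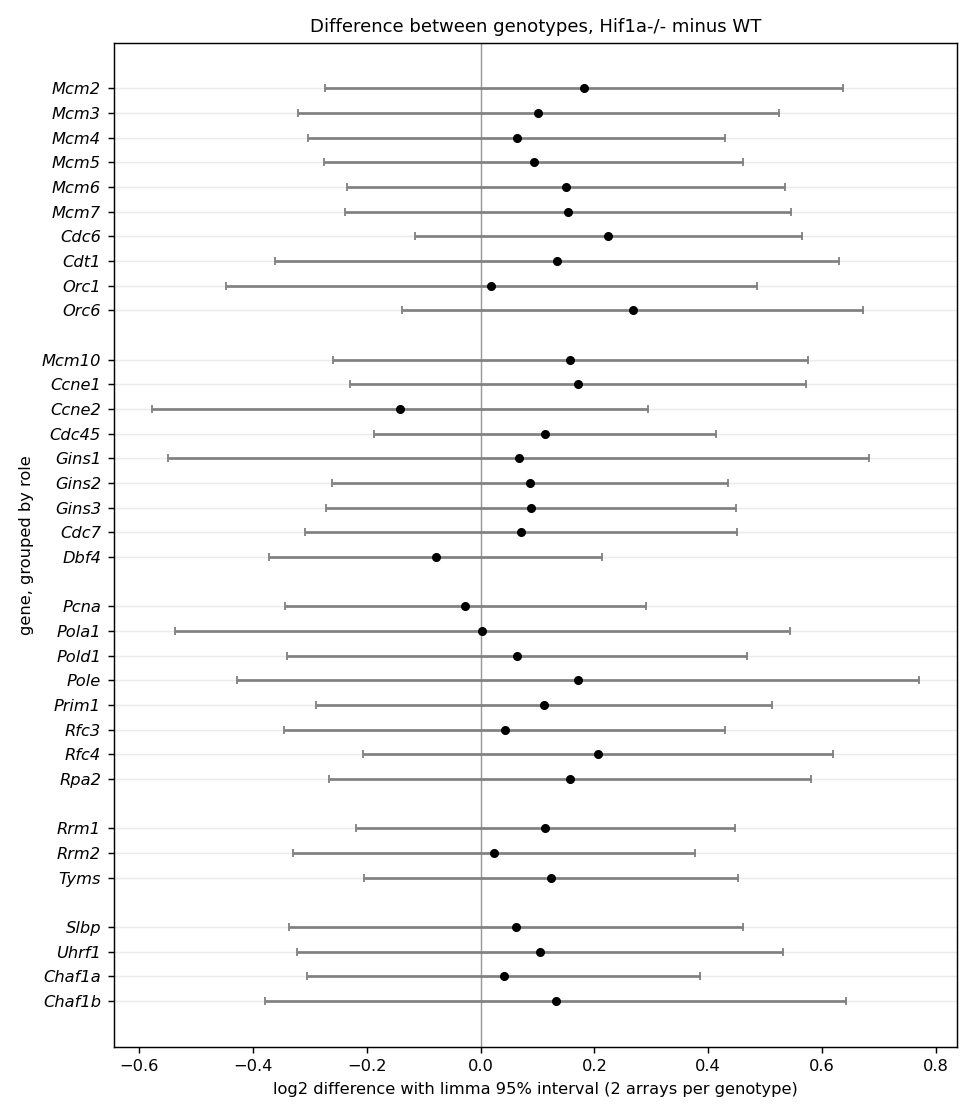
Difference between genotypes for each of the 34 genes, Hif1a-/- minus WT on the log2 scale, with the 95% interval of limma (2 arrays per genotype); genes are grouped from top to bottom as origin licensing, helicase activation and its kinases, polymerases with primase, clamp and single-strand binding, nucleotide supply, and histone supply with chromatin assembly. Every interval spans 0, and the differences run from -0.14 for Ccne2 to 0.27 for Orc6.

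The median 95% interval of a member reached 0.40 to each side, so for a typical member the data leave room for a difference of that size about the estimate. The direction rested on single arrays. Without WT replicate 1 the median difference was -0.028 with 11 members higher and 23 lower, and without Hif1a-/- replicate 1 it was -0.035, again with 11 higher and 23 lower. It was 0.25 without WT replicate 2, with 30 higher, and 0.23 without Hif1a-/- replicate 2, with 33 higher. Without WT replicate 2, 8 members were higher at an unadjusted limma p under 0.05 (Rfc4, Pole, Gins1, Orc6, Chaf1b, Pola1, Mcm10 and Mcm2), where 11.6% of all genes were, and the smallest adjusted p among members was 0.0612. Without WT replicate 1, 1 member, Pola1, was lower at that threshold, where 6.40% of all genes were. Members without overlap between genotypes, which fewer arrays make more common, numbered 3 above and 7 below without WT replicate 1 (43% and 32.3% of all genes). They numbered 26 above and 2 below without WT replicate 2 (42.5% and 30.7% of all genes), 2 above and 7 below without Hif1a-/- replicate 1 (31.4% and 19.5%), and 26 above and 1 below without Hif1a-/- replicate 2 (30.4% and 19.7%).

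In most members the gap between arrays of 1 genotype was wider than the difference between genotypes. A gap between single arrays varies more than a difference of means, so the shares over all genes are given beside the counts. In 30 of 34 the difference between genotypes was smaller than that between the WT arrays (75.5% of all genes), and in 25 it was smaller than the gaps between arrays of both genotypes (47.1% of all genes). WT replicate 2 read above WT replicate 1 in 29 members, with a median of 0.29, beside 45.4% of all genes and a median of -0.032. Hif1a-/- replicate 1 read above Hif1a-/- replicate 2 in 32 members, beside 49.6% of all genes, and replicate 2 minus replicate 1 had a median of -0.29. WT replicate 1 was the lowest of the 4 arrays for 25 members (32.1% of all genes), and Hif1a-/- replicate 1 was the highest for 26 (22.1% of all genes). From low to high, 18 members followed the order WT replicate 1, Hif1a-/- replicate 2, WT replicate 2, Hif1a-/- replicate 1, an order found in 6.62% of all genes.

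**Figure D2:**
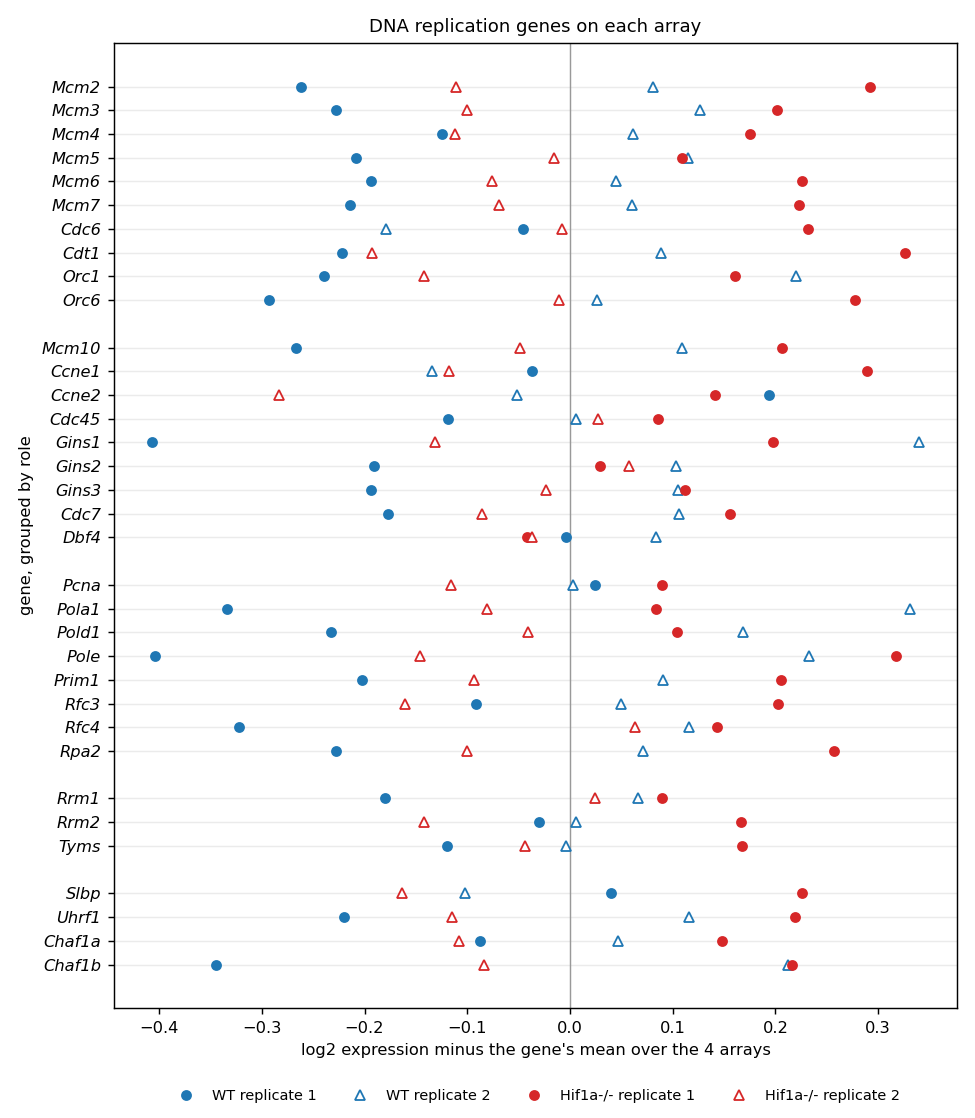
Log2 expression of the 34 genes on each array, relative to the gene's mean over the 4 arrays (x axis), with 1 row per gene grouped by role; blue marks are WT and red marks Hif1a-/- arrays, filled circles replicate 1 and open triangles replicate 2. WT replicate 1 lies leftmost in 25 rows and Hif1a-/- replicate 1 rightmost in 26. The genotypes overlap in all rows but those of Cdc6, Cdc45 and Dbf4.

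Most members are known targets of E2F factors, so the sequences before their start sites were searched for E2F site letters. A share of matches above that of all genes was therefore likely beforehand. Whether the matches bear on the gaps between arrays was not tested. The motifs were TTTCGCGC, TTTGGCGC, TTTCCCGC and TTTGCCGC on either strand, each match counted even where matches overlapped, in windows from 250 bases before to 50 bases after each start site (RefSeq, build GRCm38.p6). Of the 34 genes, 29 had such a window, and 12 of those (41.4%) held at least 1 match, beside 3.48% of the 15563 genes tested that had a window and 2.26% of all 32851 windows. The 12 genes were Mcm3, Mcm5, Mcm6, Mcm7, Orc1, Cdc6, Cdt1, Gins3, Rfc3, Pold1, Pola1 and Uhrf1, and 11 of them, all but Cdc6, read higher on WT replicate 2 than on WT replicate 1. Of the 17 members with a window and no match, 14 did so as well. A match is a description of the letters and not a bound site. The 250 bases before the start site are shown for Mcm6, which had the most matches, and for Orc1, Pola1, Cdc6 and Ccne1. Orc1 (0.46) and Pola1 (0.66) had the widest gaps between the WT arrays among the 12 genes with a match. Gins1 (0.75), Pole (0.64) and Chaf1b (0.56) had wider gaps than Orc1 and were not among the 12. Cdc6 and Ccne1 had the opposite sign between the WT arrays. Capitals mark the matches, on the strand of the gene, so that GCGCGAAA, GCGCCAAA and GCGGGAAA are motifs on the opposite strand.
Mcm6 (chr1:128359706-128359955, minus strand): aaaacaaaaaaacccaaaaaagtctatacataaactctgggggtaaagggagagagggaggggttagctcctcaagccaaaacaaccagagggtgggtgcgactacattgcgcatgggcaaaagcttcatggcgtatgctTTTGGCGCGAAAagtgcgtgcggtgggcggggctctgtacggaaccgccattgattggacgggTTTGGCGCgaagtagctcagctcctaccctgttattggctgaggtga
Orc1 (chr4:108579204-108579453, plus strand): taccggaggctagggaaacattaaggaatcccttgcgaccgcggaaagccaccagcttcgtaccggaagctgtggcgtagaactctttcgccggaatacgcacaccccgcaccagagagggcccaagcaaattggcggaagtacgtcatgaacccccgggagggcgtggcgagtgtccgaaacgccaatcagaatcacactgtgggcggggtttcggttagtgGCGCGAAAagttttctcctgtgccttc
Pola1 (chrX:93632156-93632405, minus strand): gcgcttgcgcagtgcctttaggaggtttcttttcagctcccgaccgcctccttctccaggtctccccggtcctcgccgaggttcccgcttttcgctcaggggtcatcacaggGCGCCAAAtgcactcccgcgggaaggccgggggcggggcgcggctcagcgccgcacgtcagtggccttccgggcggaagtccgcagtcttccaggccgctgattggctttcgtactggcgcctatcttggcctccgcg
Cdc6 (chr11:98907901-98908150, plus strand): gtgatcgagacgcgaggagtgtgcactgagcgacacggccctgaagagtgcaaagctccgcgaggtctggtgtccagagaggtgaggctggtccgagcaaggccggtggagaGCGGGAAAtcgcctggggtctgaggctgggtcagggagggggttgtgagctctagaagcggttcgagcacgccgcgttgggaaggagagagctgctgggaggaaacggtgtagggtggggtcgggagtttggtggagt
Ccne1 (chr7:38107491-38107740, minus strand): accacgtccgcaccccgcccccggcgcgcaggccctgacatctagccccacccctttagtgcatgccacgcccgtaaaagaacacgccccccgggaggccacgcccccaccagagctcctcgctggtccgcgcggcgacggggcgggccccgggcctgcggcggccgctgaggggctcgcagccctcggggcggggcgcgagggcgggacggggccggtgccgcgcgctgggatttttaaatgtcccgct
The Mcm6 sequence holds 3 matches, a TTTGGCGC that overlaps a TTTCGCGC of the opposite strand and, nearer to the start site, a second TTTGGCGC. The next 3 hold 1 match each, and that of Ccne1 holds 0 in these bases.

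All 10 licensing genes had a higher mean in Hif1a-/- cells (9 with centred arrays, where Orc1 turned), with a median difference of 0.14, and 0 of them passed the test. Of the origin recognition complex, Orc6, its smallest subunit, read 10.23 and 10.55 on the WT arrays and 10.80 and 10.51 on the Hif1a-/- arrays. Its difference of 0.27 ± 0.17 (SE), 1.2-fold, was the largest of the 34 genes, with an unadjusted limma p of 0.161 and a 95% interval from -0.14 to 0.67. WT replicate 1 stood low and the other WT array lay 0.037 above Hif1a-/- replicate 2, so the groups overlapped. The difference was 0.11 without WT replicate 1, 0.12 without Hif1a-/- replicate 1, 0.43 without WT replicate 2 and 0.41 without Hif1a-/- replicate 2. Only in the last of these settings was it still the largest. Among others, Cdc6 exceeded it without WT replicate 1 (0.29), Rfc4 without Hif1a-/- replicate 1 (0.17) and Pole without WT replicate 2 (0.49). Orc1, the large ATPase subunit of the complex, read 8.88 and 9.34 on the WT arrays and 9.28 and 8.98 on the Hif1a-/- arrays, so its gap of 0.46 between the WT arrays far exceeded the 0.019 between genotypes. The sign of that difference turned to -0.0071 when the arrays were centred on their medians.

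Cdc6 and Cdt1 bring the Mcm ring to the origin. Cdc6 read 9.38 and 9.25 on the WT arrays and 9.66 and 9.42 on the Hif1a-/- arrays. It was the gene with the smallest unadjusted limma p among the members (0.160), with a difference of 0.22 ± 0.14 (SE), a 95% interval from -0.12 to 0.56 and groups that did not overlap. Each Hif1a-/- array exceeded each WT array, by only 0.038 between the nearest values. Cdt1, the loader that is degraded once S phase begins, read 11.03 and 11.34 on the WT arrays and 11.57 and 11.05 on the Hif1a-/- arrays. Its gap of -0.52 between the Hif1a-/- arrays, replicate 2 minus replicate 1, was the widest of any member in that genotype, and the difference between genotypes was 0.13.

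The 6 subunits of the ring varied much alike. Mcm2 read 11.68 and 12.02 on the WT arrays and 12.23 and 11.83 on the Hif1a-/- arrays. Mcm3 read 10.88 and 11.23 on the WT arrays and 11.31 and 11.00 on the Hif1a-/- arrays. Mcm4 read 11.31 and 11.49 on the WT arrays and 11.61 and 11.32 on the Hif1a-/- arrays. In these 3 genes, as in Mcm6 and Mcm7, WT replicate 1 was lowest and Hif1a-/- replicate 1 highest. Mcm5 read 11.78 and 12.11 on the WT arrays and 12.10 and 11.98 on the Hif1a-/- arrays, and there WT replicate 2 exceeded Hif1a-/- replicate 1 by 0.0057. Mcm6 read 11.09 and 11.33 on the WT arrays and 11.51 and 11.21 on the Hif1a-/- arrays. Mcm7 read 11.95 and 12.22 on the WT arrays and 12.38 and 12.09 on the Hif1a-/- arrays. The genotypes overlapped in all 6, and their differences lay between 0.063 for Mcm4 and 0.18 for Mcm2, with standard errors from 0.15 to 0.19. Between the WT arrays the 6 subunits differed by 0.19 (Mcm4) to 0.35 (Mcm3), and between the Hif1a-/- arrays by -0.40 (Mcm2) to -0.12 (Mcm5).

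Genes that turn the loaded ring into a helicase were less uniform, with 7 of 9 higher and 2 lower in mean and a median difference of 0.087. Cdc45, the factor that joins the ring and the GINS complex, read 10.14 and 10.27 on the WT arrays and 10.35 and 10.29 on the Hif1a-/- arrays. Each Hif1a-/- array exceeded each WT array, but by 0.022 between the nearest values, and the difference was 0.11 ± 0.13 (SE), with an unadjusted limma p of 0.397. Mcm10, which helps to activate the helicase, read 9.96 and 10.33 on the WT arrays and 10.43 and 10.18 on the Hif1a-/- arrays. Of the GINS subunits, Gins1 read 9.44 and 10.18 on the WT arrays and 10.04 and 9.71 on the Hif1a-/- arrays. This was the widest gap between the WT arrays of any member, 0.75, beside 0.067 between genotypes, and the 95% interval ran from -0.55 to 0.68. Gins2 read 10.01 and 10.31 on the WT arrays and 10.23 and 10.26 on the Hif1a-/- arrays. Gins3 read 9.16 and 9.46 on the WT arrays and 9.47 and 9.33 on the Hif1a-/- arrays. For Gins2 the Hif1a-/- arrays differed by only 0.029 and lay between the WT arrays, whereas for Gins3 Hif1a-/- replicate 1 exceeded WT replicate 2 by 0.0064.

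The kinases of helicase activation went both ways. Cdc7, the kinase that phosphorylates the Mcm ring, read 8.53 and 8.81 on the WT arrays and 8.86 and 8.62 on the Hif1a-/- arrays, with a difference of 0.071. Dbf4, its activating subunit, read 10.50 and 10.59 on the WT arrays and 10.46 and 10.47 on the Hif1a-/- arrays. Dbf4 was the only member with both Hif1a-/- arrays below both WT arrays, at a difference of -0.079 ± 0.12 (SE) and an unadjusted limma p of 0.538. The cyclin E genes encode the activators of Cdk2 at the entry to S phase. Ccne1 read 10.93 and 10.83 on the WT arrays and 11.25 and 10.84 on the Hif1a-/- arrays, with Hif1a-/- replicate 1 high and the other 3 arrays within 0.098 of each other. Ccne2 read 10.21 and 9.97 on the WT arrays and 10.16 and 9.74 on the Hif1a-/- arrays, with Hif1a-/- replicate 2 low and WT replicate 1 the highest array. The difference was 0.17 for Ccne1 (95% interval from -0.23 to 0.57) and -0.14 for Ccne2, the lowest of the 34 genes (95% interval from -0.58 to 0.29).

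The polymerase, clamp and single-strand binding genes had a median difference of 0.088, with 7 of 8 higher in mean (6 with centred arrays, where Pola1 turned). Pola1, the catalytic subunit of the polymerase that starts each strand, read 9.65 and 10.32 on the WT arrays and 10.07 and 9.90 on the Hif1a-/- arrays. Its mean was nearly the same in both genotypes (difference 0.0030, 95% interval from -0.54 to 0.54), while the WT arrays lay 0.66 apart with both Hif1a-/- arrays between them. Centring the arrays gave -0.023 and a second quantile normalization -0.0097. Prim1, the catalytic primase subunit that makes the RNA primer, read 10.03 and 10.32 on the WT arrays and 10.44 and 10.14 on the Hif1a-/- arrays. Pold1, the catalytic subunit of the lagging-strand polymerase delta, read 10.12 and 10.52 on the WT arrays and 10.45 and 10.31 on the Hif1a-/- arrays. Pole, the catalytic subunit of the leading-strand polymerase epsilon, read 10.39 and 11.03 on the WT arrays and 11.11 and 10.65 on the Hif1a-/- arrays. For Pole the gaps between arrays of 1 genotype, 0.64 in WT and -0.46 in Hif1a-/- cells, were both larger in size than the difference of 0.17 between genotypes.

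Pcna, the sliding clamp that holds polymerases on DNA, showed little difference between genotypes. It read 12.94 and 12.92 on the WT arrays and 13.00 and 12.80 on the Hif1a-/- arrays, with a difference of -0.027 ± 0.13 (SE), and a second probe set for Pcna gave -0.030. Rfc3 and Rfc4 encode subunits of the loader that opens the clamp. Rfc3 read 9.68 and 9.82 on the WT arrays and 9.97 and 9.61 on the Hif1a-/- arrays. Rfc4 read 11.23 and 11.66 on the WT arrays and 11.69 and 11.61 on the Hif1a-/- arrays. Rfc4 had the third largest difference of the members, 0.21 ± 0.17 (SE), with WT replicate 1 standing low and the other 3 arrays within 0.079 of each other. Rpa2, a subunit of the protein that coats single-stranded DNA, read 10.22 and 10.52 on the WT arrays and 10.70 and 10.34 on the Hif1a-/- arrays, again with the genotypes interleaved.

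Nucleotide supply is represented by ribonucleotide reductase and thymidylate synthase. Rrm1, the large reductase subunit, read 12.21 and 12.45 on the WT arrays and 12.48 and 12.41 on the Hif1a-/- arrays. Rrm2, the small subunit whose level follows S phase, read 12.16 and 12.19 on the WT arrays and 12.35 and 12.04 on the Hif1a-/- arrays. Tyms, which makes the thymidine nucleotide, read 10.72 and 10.84 on the WT arrays and 11.01 and 10.80 on the Hif1a-/- arrays. The groups overlapped in all 3 genes, and their differences were 0.11, 0.024 and 0.12, with unadjusted limma p of 0.440, 0.876 and 0.399. Rrm2 was -0.0021 with centred arrays. The WT arrays lay 0.25 apart for Rrm1 but only 0.036 apart for Rrm2.

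New DNA is packed into chromatin as it is made. Slbp, which binds the stem-loop of histone transcripts, read 10.53 and 10.39 on the WT arrays and 10.71 and 10.33 on the Hif1a-/- arrays, and its second probe set had a difference of -0.071 where the first had 0.063. Uhrf1, which guides DNA methylation to new strands, read 10.26 and 10.60 on the WT arrays and 10.70 and 10.37 on the Hif1a-/- arrays. Chaf1a and Chaf1b encode subunits of the histone chaperone CAF-1. Chaf1a read 9.79 and 9.92 on the WT arrays and 10.02 and 9.77 on the Hif1a-/- arrays. Chaf1b read 10.24 and 10.80 on the WT arrays and 10.80 and 10.50 on the Hif1a-/- arrays. All 4 genes had a higher mean (Slbp turned when probe sets were averaged) and Hif1a-/- replicate 1 as the highest array, with differences from 0.040 to 0.13. For Chaf1b the WT arrays lay 0.56 apart and Hif1a-/- replicate 1 exceeded WT replicate 2 by 0.0033.

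Between the WT arrays, 5 members had the sign opposite to the rest. Replicate 2 read below replicate 1 in Ccne2 (-0.25), Slbp (-0.14), Cdc6 (-0.13), Ccne1 (-0.098) and Pcna (-0.021), a group formed after its values were seen. In the other 29 the gap ran from 0.036 for Rrm2 to 0.75 for Gins1. Between the Hif1a-/- arrays those 5 genes did not stand apart in sign, with replicate 2 minus replicate 1 from -0.43 for Ccne2 to -0.21 for Pcna. Gins2 (0.029) and Dbf4 (0.0054) were the members with replicate 2 above replicate 1 in that genotype.

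**Figure D3:**
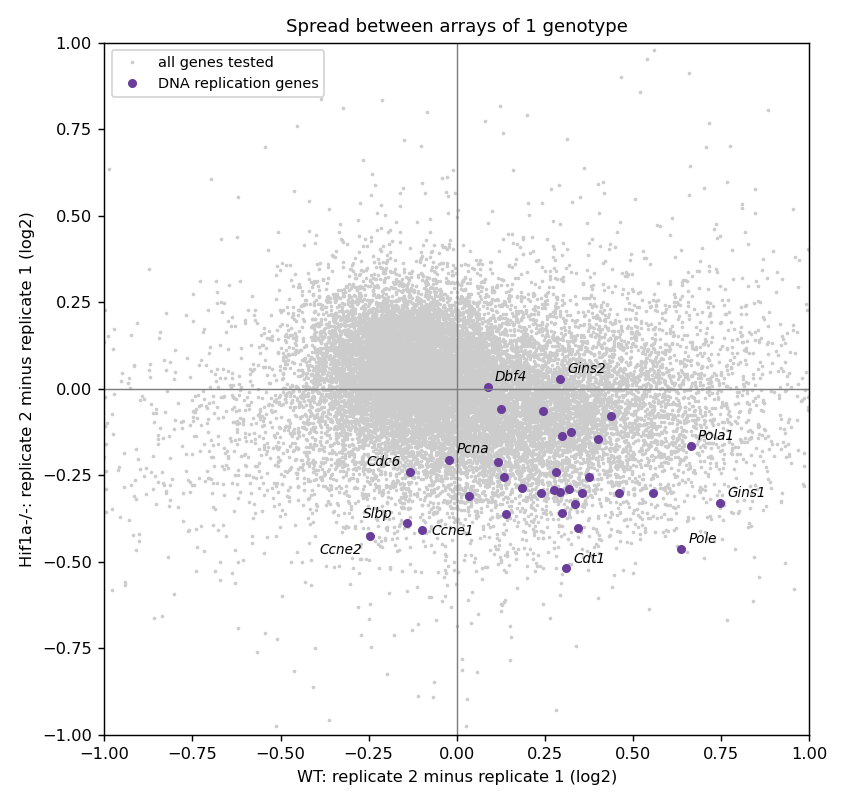
Spread between arrays of 1 genotype: replicate 2 minus replicate 1 on the log2 scale in WT (x axis) and in Hif1a-/- cells (y axis), for the 34 genes (purple, some named) and all genes tested (grey; 381 genes lie outside the axes). Most of the 34 genes sit in the lower right quadrant, higher on WT replicate 2 and lower on Hif1a-/- replicate 2, while Ccne1, Ccne2, Cdc6, Slbp and Pcna sit to the left of 0.

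Further replication genes, from a list of 56 of which 55 were measured, had 0 genes with an adjusted limma p under 0.05. Their median difference was 0.067, 41 lay higher and 14 lower in mean, and 0 had an unadjusted limma p under 0.05 in either direction. Each Hif1a-/- array exceeded each WT array in 5 of them and lay under each WT array in 2, beside the 15.7% and 9.05% of all genes. Pole3, an accessory subunit of polymerase epsilon, had the smallest unadjusted limma p of the list, 0.122, at a difference of 0.30 ± 0.17 (SE). Pole3 read 10.18 and 10.53 on the WT arrays and 10.78 and 10.53 on the Hif1a-/- arrays, so Hif1a-/- replicate 2 and WT replicate 2 nearly coincided. Rpa3, the small subunit of the single-strand binding protein, differed by 0.24, and Rnaseh2a, the catalytic subunit of an RNase H that removes RNA from DNA, by 0.29, with unadjusted limma p of 0.135 and 0.150. The mean of both Rpa3 probe sets differed by 0.13. Without WT replicate 2 the differences of Pole3, Rpa3 and Rnaseh2a were 0.48, 0.36 and 0.49, and without WT replicate 1 they were 0.12, 0.12 and 0.098. WT replicate 1 was lowest for 39 of the 55 and Hif1a-/- replicate 1 highest for 33. Of the 44 with a promoter window, 14 (31.8%) held an E2F motif.

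Mitosis genes shared the low reading on WT replicate 1 but not the gap between the Hif1a-/- arrays. Of 31 listed genes 30 were measured, with a median difference of 0.053 and 21 higher in mean, and 0 had an unadjusted limma p under 0.05. WT replicate 2 exceeded WT replicate 1 in 29 of 30, with a median of 0.21. Hif1a-/- replicate 1 exceeded replicate 2 in 14 of 30, with a median of 0.012 for replicate 2 minus replicate 1, beside 32 of 34 and -0.29 for the replication members. The contrast between the lists was not tested. The 3 mitosis genes with the smallest p were Birc5, a survivin of the chromosomal passenger complex, at 0.14, the mitotic kinase gene Cdk1 at 0.13 and the centromeric histone gene Cenpa at 0.12, with unadjusted limma p of 0.309, 0.365 and 0.372. In 3 of the 26 mitosis genes with a promoter window (11.5%) there was an E2F motif.

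**Figure D4:**
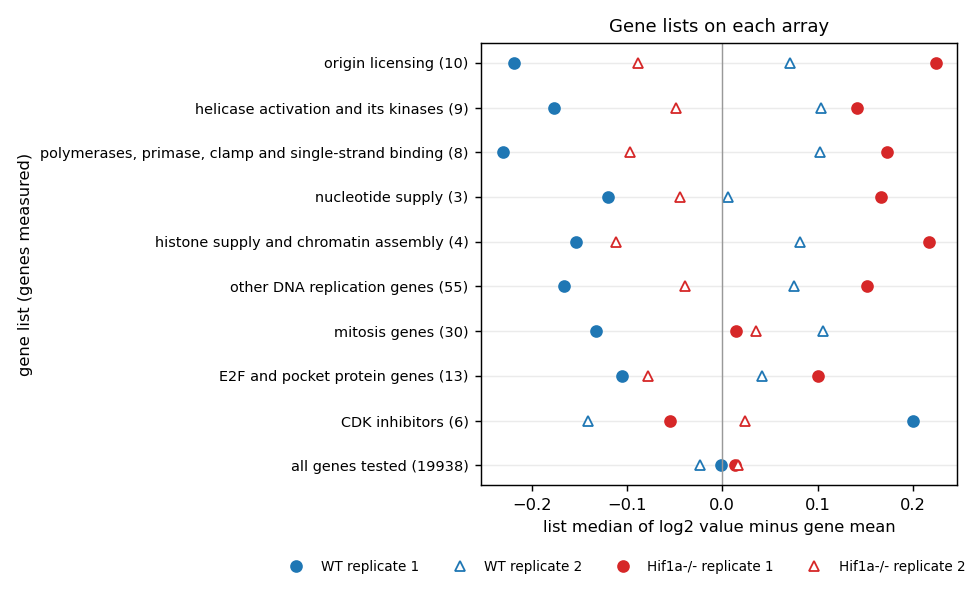
Median over each gene list of log2 expression relative to the gene's mean over the 4 arrays (x axis), by list with the number of genes measured; blue marks are WT and red marks Hif1a-/- arrays, filled circles replicate 1 and open triangles replicate 2. The 5 groups of replication genes run in the order WT replicate 1, Hif1a-/- replicate 2, WT replicate 2, Hif1a-/- replicate 1. The further replication genes and the E2F and pocket protein genes run in the same order, while the mitosis genes have the Hif1a-/- arrays close together.

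Regulators of these genes did not pass the test either. Of 13 E2F, partner and pocket protein genes, 8 had a higher mean, with a median difference of 0.022, and 0 had an unadjusted limma p under 0.05. E2f4, a repressive E2F of resting cells, read 11.40 and 11.81 on the WT arrays and 12.05 and 11.73 on the Hif1a-/- arrays and differed by 0.29 (unadjusted limma p 0.174). E2f6, another repressor, differed by 0.23 and Rb1, the retinoblastoma gene, by -0.17. These values rested on single arrays: E2f4 differed by 0.084 without WT replicate 1 and 0.49 without WT replicate 2, with unadjusted limma p of 0.577 and 0.00365, and Rb1 by -0.0055 and -0.34, with unadjusted limma p of 0.971 and 0.0324. Without WT replicate 2, 11.6% of all genes were higher and 6.61% lower at an unadjusted limma p under 0.05. Among the CDK inhibitors, 6 of 7 were measured, Cdkn1a being left out because its probe set carries a second symbol. Cdkn1b, the inhibitor of cyclin E kinase, read 10.42 and 10.19 on the WT arrays and 10.12 and 10.01 on the Hif1a-/- arrays, with groups that did not overlap, a difference of -0.24 ± 0.14 (SE) and an unadjusted limma p of 0.137. The mean of both Cdkn1b probe sets differed by -0.42, with an unadjusted limma p of 0.0192, a setting in which 1.02% of all genes were lower at 0.05. For the brightest probe set the difference was -0.35 without WT replicate 2 and -0.12 without WT replicate 1. It was -0.29 without Hif1a-/- replicate 1 and -0.18 without Hif1a-/- replicate 2, so its size leaned on single arrays too. The others differed by -0.10 (Cdkn1c), 0.11 (Cdkn2a), 0.073 (Cdkn2b), -0.099 (Cdkn2c) and -0.14 (Cdkn2d), with unadjusted limma p from 0.447 to 0.704. All 6 read lower on WT replicate 2 than on WT replicate 1, with a median of -0.27, opposite in sign to the replication members. Of all genes, 45.4% read higher on WT replicate 2, with a median of -0.032. Between the Hif1a-/- arrays the 6 had a median of 0.063 for replicate 2 minus replicate 1, with 2 higher on replicate 1. The contrast with the members was not tested.

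Markers of other cells differed between arrays, and those of erythroid and mast cells also between genotypes in mean. All 10 mature neutrophil markers read lower on WT replicate 2 than on WT replicate 1, with a median of -1.58, while 8 of 9 measured markers of the gate and of stem and progenitor cells read higher, with a median of 0.92. Expressed as the log2 of the summed linear values, the neutrophil list stood at 16.44 and 15.14 on the WT arrays and 15.84 and 15.68 on the Hif1a-/- arrays, and the gate list at 13.96 and 14.41 on the WT arrays and 14.02 and 14.15 on the Hif1a-/- arrays. Of the 9 erythroid markers measured of 12, 9 had a higher mean in Hif1a-/- cells, with a median difference of 0.57, 6 without overlap (15.7% of all genes) and 6 at an unadjusted limma p under 0.05 (0.697% of all genes). They summed to 14.25 and 13.99 on the WT arrays and 14.90 and 14.42 on the Hif1a-/- arrays. Without Hif1a-/- replicate 1 the median difference of the erythroid markers was 0.35, with 8 higher and 1 lower. Without Hif1a-/- replicate 2 it was 0.82, with 7 higher and 2 lower. The size of the difference, and with it the 6 calls, thus leaned on single arrays. Hif1a-/- replicate 1 was highest for 7 of the 9 erythroid markers and for 26 of the 34 replication genes. The lowest array was WT replicate 2 for 7 of the 9 and WT replicate 1 for 25 of the 34. All 10 mast cell markers had a lower mean, with a median difference of -0.74, 5 without overlap (9.05% of all genes) and 4 at an unadjusted limma p under 0.05 (0.978% of all genes), the smallest adjusted p being 0.239. They summed to 15.03 and 14.86 on the WT arrays and 14.44 and 14.82 on the Hif1a-/- arrays, with Hif1a-/- replicate 1 lowest. Without that array their median difference was -0.31, with 1 higher and 9 lower, so its size leaned on that array. None of the erythroid or mast cell markers passed the adjusted threshold. The 11 lymphoid markers measured of 12 summed to 13.46 and 13.40 on the WT arrays and 13.35 and 13.37 on the Hif1a-/- arrays. This sum leans on Nkg7, the marker with the highest level (12.83 and 13.00 on the WT arrays). Of the 11, only Nkg7 read higher on WT replicate 2 than on WT replicate 1. The median of WT replicate 2 minus replicate 1 was -0.26, with -1.84 for Cd79a and -1.66 for Ebf1. The 34 replication genes summed to 15.95 and 16.18 on the WT arrays and 16.29 and 16.03 on the Hif1a-/- arrays. No marker is at 0 on an RMA scale, and the part of these lists in the differences between arrays and between genotypes was not tested.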

How the data were processed

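RNA of 4 samples was measured on 1 array each. The deposited table holds log2 values of 35556 probe sets, which the authors made with Affymetrix Expression Console 1.1 and RMA, per the submitters' processing notes. RMA draws differences of dim genes together and scales out changes of total RNA per cell. Groups follow the genotype in the sample titles.

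Names came from the platform annotation, by which 21789 probe sets have 1 symbol, 1621 several and 12146 none here. The brightest set by mean stood for each of 19938 genes, and 19856 of these were found by Entrez number in RefSeq (GRCm38.p6), with 0 symbols changed. limma 3.58.1 in R 4.3.3 compared genotypes on all 4 arrays with genotype as the only term and Benjamini-Hochberg adjustment over all genes at 0.05. The variance rested on 2 degrees of freedom from the arrays and 4.46 from the prior. With 2 arrays against 2, the smallest two-sided p of an exact permutation test is 0.333. The code was tested on simulated data.

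Every member is named, as are the 3 genes with the smallest p of the further replication, mitosis and E2F lists and every CDK inhibitor. Members and lists were chosen with earlier results of these data known, so lists are described by counts and medians beside those of all genes. Alternatives were a filter at the 25th percentile of mean level, quantile normalization a second time, arrays centred on their medians, a robust variance trend, averaged or all probe sets, the replicate number as a block, and each array left out in turn.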

Additional observations from a re-analysis of the deposited data

How the results depend on the processing

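Under the alternatives tried, 0 members passed the adjusted threshold in any fit, and the median difference of members stayed above 0 with a filter, a second quantile normalization (0.11), centred arrays (0.077), a variance trend, averaged or all probe sets and the replicate block. Members with both Hif1a-/- arrays above both WT arrays numbered 5 after the second quantile normalization (14% of all genes) and 1 with centred arrays (11.5%), against 2 (15.7%). Signs of small differences turned for Pcna (0.0019) and Pola1 (-0.0097) after the second quantile normalization, for Rrm2 (-0.0021), Orc1 (-0.0071) and Pola1 (-0.023) with centred arrays, and for Slbp (-0.0043) with averaged probe sets. The replicate block left the median at 0.10 with 0 members called. The numbers share no stated source, and the gaps between replicates correlated at -0.0072 between genotypes over all genes, so the block has no basis beyond the numbers.

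Leaving out each array in turn, which leaves a lone array assumed to vary like the other genotype, moved the results most. The median difference ran from -0.035 to 0.25 for members, -0.046 to 0.20 for the further replication genes, -0.089 to 0.16 for mitosis genes, -0.21 to 0.12 for CDK inhibitors and -0.067 to 0.15 for E2F and pocket protein genes. Members at an unadjusted limma p under 0.05 numbered 0 to 8 higher and 0 to 1 lower, and those without overlap 2 to 26 above and 1 to 7 below, where fewer arrays make overlap rarer (31.4% of all genes and 19.5% without Hif1a-/- replicate 1, 42.5% and 30.7% without WT replicate 2). Single genes whose sign turned ran from -0.020 to 0.38 for Mcm2, -0.076 to 0.28 for Mcm3, -0.080 to 0.21 for Mcm4, -0.068 to 0.26 for Mcm5, -0.0010 to 0.30 for Mcm6, -0.031 to 0.35 for Mcm10, -0.13 to 0.076 for Pcna, -0.032 to 0.37 for Ccne1, -0.35 to 0.071 for Ccne2, -0.13 to 0.39 for Cdt1, -0.31 to 0.44 for Gins1, -0.060 to 0.23 for Gins2, -0.061 to 0.24 for Gins3, -0.0088 to 0.24 for Rrm1, -0.13 to 0.18 for Rrm2, -0.21 to 0.25 for Orc1, -0.33 to 0.34 for Pola1, -0.14 to 0.26 for Pold1, -0.15 to 0.49 for Pole, -0.038 to 0.26 for Prim1, -0.14 to 0.22 for Rfc3, -0.012 to 0.43 for Rfc4, -0.022 to 0.34 for Rpa2, -0.13 to 0.26 for Slbp, -0.064 to 0.27 for Uhrf1, -0.088 to 0.17 for Chaf1a, -0.15 to 0.41 for Chaf1b, -0.071 to 0.21 for Cdc7, -0.033 to 0.49 for E2f6, -0.022 to 0.25 for Cdkn2a, -0.24 to 0.039 for Cdkn2c, -0.47 to 0.19 for Cdkn2d, -0.18 to 0.32 for Cdkn2b. Those that kept their sign ran from 0.0078 to 0.30 for Mcm7, 0.10 to 0.34 for Cdc6, 0.051 to 0.18 for Cdc45, 0.018 to 0.23 for Tyms, 0.11 to 0.43 for Orc6, -0.12 to -0.035 for Dbf4, 0.12 to 0.48 for Pole3, 0.12 to 0.36 for Rpa3, 0.098 to 0.49 for Rnaseh2a, 0.081 to 0.20 for Birc5, 0.033 to 0.22 for Cdk1, 0.056 to 0.19 for Cenpa, 0.084 to 0.49 for E2f4, -0.34 to -0.0055 for Rb1, -0.35 to -0.12 for Cdkn1b, -0.18 to -0.028 for Cdkn1c. Over all genes tested, limma with Benjamini-Hochberg adjustment called 0 genes at 0.05, against 2 with the robust variance trend, 47 with the replicate block, 349 without WT replicate 1, 1442 without WT replicate 2, 2 without Hif1a-/- replicate 1 and 2 without Hif1a-/- replicate 2. The number of arrays limits the precision.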

Other observations

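Among the further replication genes, the widest gaps between the WT arrays were in Dctd and Samhd1, named after their values were seen. Mcm8 (0.86) and Pold2 (0.84) came next, while other deoxynucleotide genes had smaller gaps (Dck 0.058, Rrm2b 0.12, Tk1 0.22 and Dut 0.35). Dctd, the deaminase that feeds thymidylate synthesis, read 10.13 and 11.52 on the WT arrays and 10.93 and 11.24 on the Hif1a-/- arrays, a gap of 1.39 between the WT arrays with both Hif1a-/- arrays between them. Samhd1, an enzyme that breaks down deoxynucleotides and is abundant in myeloid cells, read 12.90 and 11.88 on the WT arrays and 12.31 and 12.29 on the Hif1a-/- arrays, a gap of -1.02 in the other direction. Their differences between genotypes were 0.27 and -0.086, with unadjusted limma p of 0.542 and 0.787.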
